A study of Mus musculus with 17 samples.

Results

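The genes described are the 2 cyclooxygenases, Ptgs1 and Ptgs2, the 3 prostaglandin E synthases Ptges, Ptges2 and Ptges3, the dehydrogenase Hpgd and the phospholipase Pla2g4a. They were chosen by symbol, by a rule that used no counts though earlier results of these data were known, and all 7 symbols matched 1 row each among the 55471 genes of the count table. Their RNA was measured by sequencing of total RNA from the hippocampus of C57BL/6 mice aged 3 to 6 months, in 17 libraries.

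Prostaglandins are signalling lipids made on demand. A phospholipase frees arachidonate from membranes, a cyclooxygenase turns it into prostaglandin H, terminal synthases turn that into prostaglandin E and the other prostanoids, and a dehydrogenase inactivates the products. In the hippocampus Ptgs2, which encodes COX-2, is known as an immediate-early gene of excitatory neurons that is switched on by synaptic activity and seizures, whereas Ptgs1, which encodes COX-1, is regarded as the constitutive form.

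CBP-ifKO mice carried floxed Crebbp alleles and creERT2, a Cre recombinase that tamoxifen activates, under the Camk2a promoter. After 5 doses of tamoxifen on alternate days, their forebrain excitatory neurons made a truncated CBP without lysine acetyltransferase activity, while other cells of the hippocampus kept the intact gene. Controls were littermates that also received tamoxifen and that, according to the study's methods, lacked creERT2, although a label of the control samples names the creERT2 line. The Sal groups had only saline. Both other treatments began with kindling, repeated doses of the GABA-A antagonist pentylenetetrazole (PTZ), and 1 week later ended with saline (PTZ0) or with 45 mg/kg PTZ (PTZ45). Tissue was taken 45 min after the last injection. The study describes progressive seizures during kindling in controls and not in CBP-ifKOs, so genotype and seizure history cannot be told apart in the kindled groups. Each of the 6 groups had 3 libraries except Control PTZ45, which had 2, and the comparisons ask how these genes respond to the last injection with and without functional CBP.

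The libraries held 5831992 to 18735643 counts. Crebbp was at 1061 to 1337 normalized counts (counts divided by the DESeq2 size factor of the library) in the 9 CBP-ifKO libraries and at 1824 to 2429 in the 8 control libraries, and Esr1, part of which is in creERT2, at 703 to 941 and 41.0 to 77.8, so every library lay on the side of its label. The excitatory neuron, interneuron, astrocyte, oligodendrocyte, microglia and endothelium marker genes had counts in every library, as did those of choroid plexus and meninges. The summed choroid plexus markers were at 10607 to 43339 normalized counts in 5 libraries of 5 groups and at 405 to 1080 in the other 12. The summed interneuron markers were at 5544 to 5862 in CBP-ifKO Sal and 6347 to 6367 in Control Sal, and the summed astrocyte markers at 10487 to 11599 and 12092 to 12988. The library names in the labels place Control Sal and Control PTZ0 on lane 3, CBP-ifKO Sal and Control PTZ45 on lane 4, and CBP-ifKO PTZ0 and PTZ45 on lane 5, so lane and group cannot be told apart except within Control PTZ0 against Sal and CBP-ifKO PTZ45 against PTZ0.

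In the mouse genome build GRCm38, Ptgs2 (ENSMUSG00000032487) lies on the plus strand at chr1:150100031-150108227 and Ptgs1 (ENSMUSG00000047250) on the plus strand at chr2:36230426-36252272. Their promoters are shown because their enzymes catalyse the same reaction, while only Ptgs2 was called after PTZ. The first and second sequences are the 250 bases before the annotated start in the RefSeq promoter table (GRCm38.p6), at chr1:150099781-150100030 and chr2:36230176-36230425. The third is a stretch of 30 bases just after the Ptgs2 start, at chr1:150100035-150100064. All are on the plus strand, written 5′ to 3′, and capitals mark the motifs found.
Ptgs2 upstream: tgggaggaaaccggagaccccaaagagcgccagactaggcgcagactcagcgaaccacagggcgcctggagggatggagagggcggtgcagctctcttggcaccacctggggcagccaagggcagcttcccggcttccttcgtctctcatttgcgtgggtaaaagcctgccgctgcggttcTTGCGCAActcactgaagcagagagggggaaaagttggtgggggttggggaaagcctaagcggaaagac
Ptgs1 upstream: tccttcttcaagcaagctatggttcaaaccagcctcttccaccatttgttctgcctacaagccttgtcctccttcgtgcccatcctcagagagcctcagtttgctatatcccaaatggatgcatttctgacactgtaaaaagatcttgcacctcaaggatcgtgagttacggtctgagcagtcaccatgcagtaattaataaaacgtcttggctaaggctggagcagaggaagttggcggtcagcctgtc
Ptgs2 after the start: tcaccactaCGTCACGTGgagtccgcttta

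Windows from 250 bases before to 50 bases after each start were searched on both strands for 5 motifs, chosen with the results known. The Ptgs2 window held the C/EBP palindrome TTGCGCAA from position -69, which was found in 60 of 32851 promoters of the table (0.183%). It also held the CRE half-site, written TGACG and read here on the minus strand, from position 14, a motif present in 20.8% of promoters. An E-box, CACGTG, began at position 17 and overlapped the half-site in the third sequence, and 7.15% of promoters held one. The Ptgs2 window held no TATA box in the form TATAAA, which 13.6% of promoters had. Nor did it hold the AP-1 site TGAGTCA, which 5.20% of promoters had. The Ptgs1 window held none of the 5. Of the other members, Ptges2 had an E-box from position -77, Ptges3 a CRE half-site from position 12, Hpgd a TATAAA from position 5 and Pla2g4a a TATAAA 200 bases before a second annotated start (position -200), and Ptges had no match. A match describes the sequence only.

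Per kb of exon, which allows genes to be compared, the 7 levels spanned from the trace level of Ptges to the abundant Ptges3. The means over the 17 libraries were 224 normalized counts per kb for Ptges3, 124 for Ptgs2, 52.8 for Ptges2, 38.4 for Ptgs1, 36.7 for Hpgd, 9.55 for Pla2g4a and 6.70 for Ptges. The Ptgs2 mean is raised by the PTZ45 controls, and in Control Sal its level was 85.0 per kb, against 39.6 for Ptgs1. Most neighbours in this order had overlapping ranges, and in both Control PTZ45 libraries Ptgs2 (374 and 496 per kb) lay above Ptges3 (217 and 251). Elsewhere in the order, Ptgs2 began at 60.3 per kb and Ptges2 reached 63.9, Ptges2 began at 42.4 and Ptgs1 reached 44.2, Ptgs1 ranged from 33.2 to 44.2 per kb and Hpgd from 17.3 to 47.0, and Pla2g4a from 7.05 to 13 and Ptges from 4.22 to 9.83. Hpgd lay above Pla2g4a in every library. The levels of Ptges3 (204 to 263 per kb) lay above those of Ptges2 (42.4 to 63.9) in every library.

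**Figure D1:**
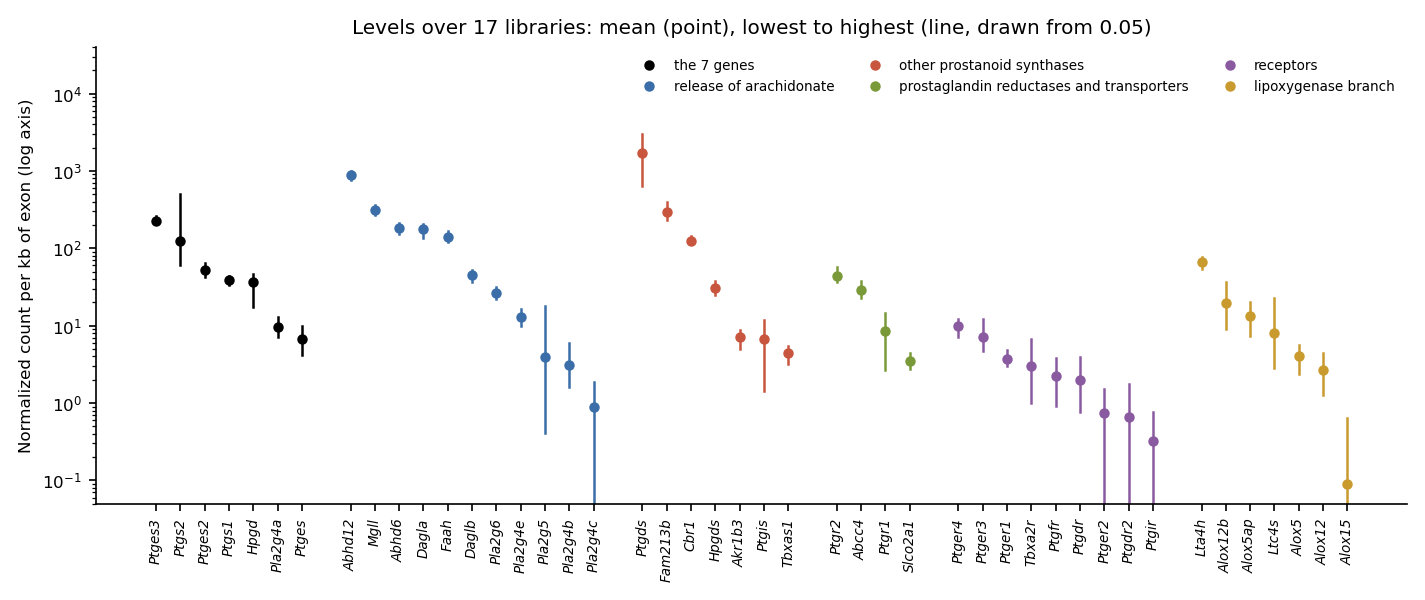
Levels of the 7 genes (black) and of 38 other genes of the prostanoid and neighbouring lipid pathways (coloured by role), in normalized counts per kb of exon on a log axis. Points are means over 17 libraries and lines run from the lowest to the highest library. Ptgs2 has the widest range of the 7 in units per kb, from 60.3 to 496, and the receptors lie at or below 9.80 on average.

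Ptgs2 was the only one of the 7 genes called in any pair of groups, and Ptges2 was also called for genotype over all libraries. In the pairwise DESeq2 Wald tests a gene was called at a Benjamini-Hochberg adjusted p under 0.05 over all genes tested. In controls 1 of the 7 was called in PTZ45 against Sal, where 1.17% of all genes were called, and 1 of 7 in PTZ45 against PTZ0, where 1.25% were. In CBP-ifKOs 1 of 7 was called in PTZ45 against Sal (0.294% of all genes) and 0 of 7 in PTZ45 against PTZ0 (0.0872%). Kindling followed by saline gave 0 of 7 calls against Sal in controls (0.00843% of all genes), in CBP-ifKOs (0.0112%) and in 1 fit of both genotypes with genotype as a term (0% of 38090 genes). At an unadjusted p under 0.05 these 4 comparisons without a call held 1, 0, 0 and 1 of the 7, Ptgs2 both times, and edgeR called 0 of 7 in each of them.

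Between genotypes, CBP-ifKO against Control gave 1 call of 7 in Sal (2.04% of all genes), in PTZ0 (6.68%) and in PTZ45 (3.07%). The interaction, which tests whether the PTZ45 response differs between genotypes, gave 1 call of 7 over Sal (0.329% of all genes) and 1 of 7 over PTZ0 (0.423%). Each of these calls was Ptgs2. Over all 17 libraries, with treatment as a term, 2 of the 7 were called for genotype, Ptgs2 and Ptges2, in a comparison that called 19.3% of all genes. Both were lower in CBP-ifKOs. The median log2 fold change of the 7 was -0.04 in Control PTZ45 against Control Sal and -0.03 for genotype over all libraries, where the medians over all genes tested were 0.01 and 0.01.

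**Figure D2:**
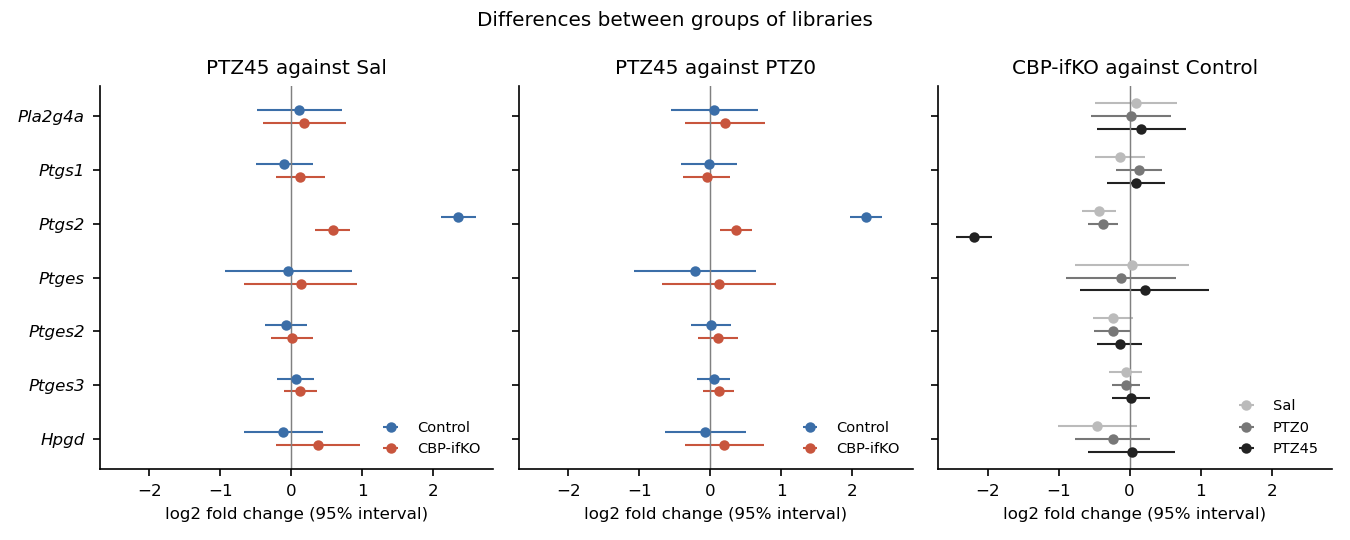
Log2 fold changes of the 7 genes with 95% intervals (DESeq2), for PTZ45 against Sal and PTZ45 against PTZ0 in each genotype and for CBP-ifKO against Control in each treatment. Ptgs2 stands at 2.35 and 2.19 in controls and at 0.59 and 0.37 in CBP-ifKOs, and the intervals of the other 6 genes include 0.

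Pla2g4a (ENSMUSG00000056220, chr1:149829618-149961290, minus strand), the cytosolic phospholipase that frees arachidonate, is a neighbour of Ptgs2. Its 5′ end lies 138741 bases from the Ptgs2 start. It was at 49.2 to 69.3 normalized counts in Control Sal, 48.3 to 78.1 in Control PTZ0 and 60.8 and 62.8 in the 2 Control PTZ45 libraries. In CBP-ifKOs it was at 45.1 to 80.7 in Sal and 45.0 to 78.1 in PTZ0, with 50.5 to 83.0 in PTZ45. The groups overlapped in all 9 pairs compared. The log2 fold change of Control PTZ45 against Control Sal was 0.11 (SE 0.31, adjusted p 0.993 by DESeq2), with a 95% interval from -0.49 to 0.71. With raw counts of 26 to 126 per library, that interval still holds changes from 28.7% lower to 63.7% higher.

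Ptgs1, the constitutive cyclooxygenase, was at 137 to 169 normalized counts in Control Sal, 129 to 159 in Control PTZ0 and 129 and 157 in Control PTZ45. In CBP-ifKOs it was at 133 to 146 in Sal and 152 to 172 in PTZ0, with 152.5 to 154.5 in PTZ45, so that both kindled CBP-ifKO groups lay above CBP-ifKO Sal without overlap. Neither difference was called, with log2 values of 0.19 in PTZ0 and 0.13 in PTZ45 (SE 0.18 for both, adjusted p 1.0 by DESeq2 for both). In controls the log2 fold change of PTZ45 against Sal was -0.10 (SE 0.20), with a 95% interval from -0.49 to 0.30. An exon of Ptgs1 overlaps Gm43621, an unverified transcript on the opposite strand, and whether strand was used in counting is not given in the sources used here.

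Ptgs2 rose 5.12-fold from Sal to PTZ45 in controls and 1.503-fold in CBP-ifKOs. Its 3 Control Sal libraries were at 385, 390.3 and 393 normalized counts, its 3 Control PTZ0 libraries at 418, 433 and 459.9, and its 2 Control PTZ45 libraries at 1714 and 2274. The CBP-ifKO libraries were at 276, 291 and 295 in Sal, at 329, 334 and 349 in PTZ0 and at 422, 429 and 454 in PTZ45. The 2 Control PTZ45 libraries thus stood far above the other 15, and in each of the 9 pairs of groups compared the libraries of 1 group lay wholly above those of the other.

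**Figure D3:**
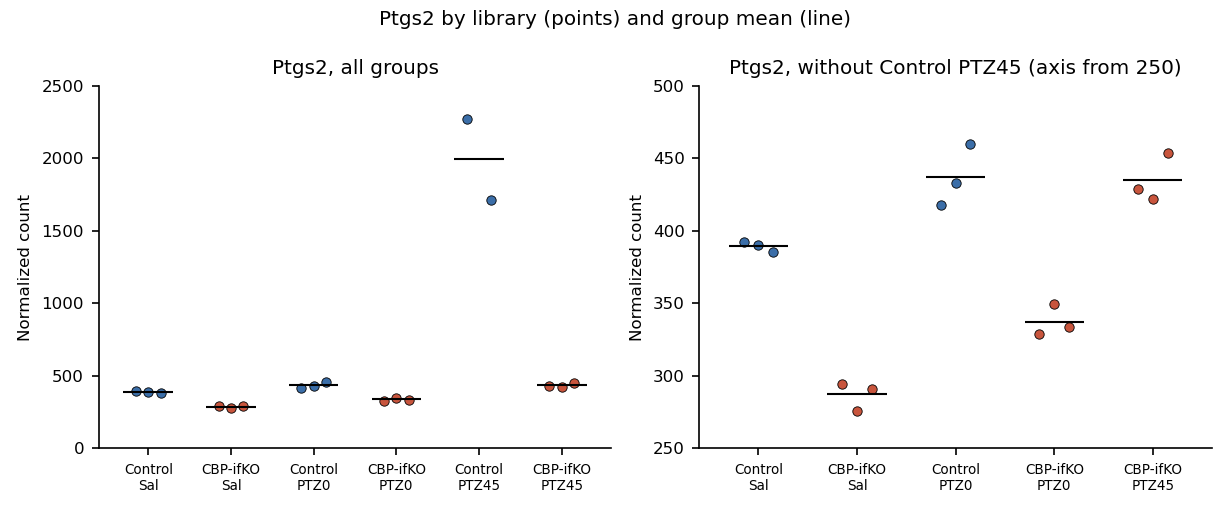
Ptgs2 in each library, in normalized counts (left, all 6 groups from 0; right, without Control PTZ45 and from 250). Points are libraries and lines are group means. The Control PTZ45 libraries are at 1714 and 2274, all others between 276 and 459.9, and CBP-ifKO lies below Control within each treatment.

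The PTZ45 response of Ptgs2 in controls was 5.12-fold over Sal (log2 fold change 2.35, SE 0.12, adjusted p 6.58e-76 by DESeq2), the 27th largest rise among the 163 genes called higher. Over PTZ0 it was 4.56-fold (log2 fold change 2.19, SE 0.12, adjusted p 4.28e-77 by DESeq2). In CBP-ifKOs PTZ45 was 1.503-fold over Sal (log2 fold change 0.59, SE 0.13, adjusted p 0.00239 by DESeq2), with a 95% interval from 0.34 to 0.83. Over PTZ0, a comparison within 1 lane, the CBP-ifKO log2 fold change was 0.37 (SE 0.12) and was not called, with an adjusted p of 0.646 by DESeq2, although the groups did not overlap and the unadjusted p of this Wald test across all genes was 0.00151 in DESeq2. The call of CBP-ifKO PTZ45 over Sal was lost in 5 of 13 alternative analyses (adjusted p up to 0.125 by edgeR with a filter on low counts), among them those without CBP-ifKO Sal replicate 2, CBP-ifKO PTZ45 replicate 1 and CBP-ifKO PTZ45 replicate 3 (adjusted p up to 0.112 by DESeq2). Both control calls were kept in all 12. Some marker sums of other cells also differed between PTZ45 and Sal without overlap. In controls the interneuron sum was higher (6413 to 6607 against 6347 to 6367) and the microglia sum lower (2822 to 3052 against 3108 to 3280). In CBP-ifKOs the interneuron sum was higher (5883 to 6156 against 5544 to 5862). The part of these cells in the Ptgs2 responses was not tested.

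The difference between the responses was tested directly. The interaction of genotype and PTZ45 had a log2 value of -1.77 over Sal (SE 0.17, adjusted p 6.59e-22 by DESeq2) and of -1.83 over PTZ0 (SE 0.16, adjusted p 9.02e-27 by DESeq2). It was called in all 18 alternatives of each, with values from -1.96 to -1.55 over Sal and from -2.01 to -1.61 over PTZ0. In normalized counts, the mean rise from Sal to PTZ45 was 1605 in controls and 147.7 in CBP-ifKOs, or 9.20% of the control rise. The mean rise from PTZ0 to PTZ45 was 1557 in controls and 97.7 in CBP-ifKOs, or 6.27% of the control rise. After PTZ45 the CBP-ifKO mean of 435 ± 16.8 (SD, n = 3) was 112% of the mean of unstimulated controls.

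The level of Ptgs2 was also lower in CBP-ifKOs before any PTZ was given. In Sal the CBP-ifKO mean was 287 ± 9.93 (SD, n = 3) against 389 ± 3.87 (SD, n = 3) in controls, or 73.8% (log2 fold change -0.44, SE 0.12, adjusted p 0.0258 by DESeq2). In PTZ0 the means were 337 ± 10.8 (SD, n = 3) and 437 ± 21.3 (SD, n = 3), or 77.2% (log2 fold change -0.37, SE 0.11, adjusted p 0.0146 by DESeq2). In PTZ45 they were 435 ± 16.8 (SD, n = 3) and 1994 ± 395 (SD, n = 2), or 21.8% (log2 fold change -2.20, SE 0.13, adjusted p 2.56e-62 by DESeq2). The PTZ45 call was kept in all 12 alternatives, and those in Sal and PTZ0 in 7 of 13 each. In bulk tissue, fewer cells of a type and less RNA per cell cannot be told apart, and markers of other cells moved with these differences. Besides both marker sums in Sal, the astrocyte sum was lower in CBP-ifKOs without overlap in PTZ0 (11013 to 12129 against 12290.2 to 13205), and in PTZ45 so were the interneuron sum (5883 to 6156 against 6413 to 6607) and the meningeal fibroblast sum (625 to 915 against 933 to 1176). The excitatory neuron sum overlapped between the genotypes in each treatment. In Sal it was at 33139 to 38490 in CBP-ifKOs and 27747 to 36217 in controls. In PTZ0 these ranges were 32514 to 41116 and 31015 to 32791, and in PTZ45 31918 to 35236 and 31395 to 35154. The part of these cells in the Ptgs2 differences was not tested.

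The calls in Sal and PTZ0 rested on most of the libraries. Without any 1 of the 3 Control Sal libraries, or without CBP-ifKO Sal replicate 1 or 2, the call in Sal was lost (adjusted p up to 0.246 by DESeq2), with log2 fold changes of -0.46 to -0.41. Without any 1 of the 3 Control PTZ0 libraries, or without CBP-ifKO PTZ0 replicate 1 or 3, that in PTZ0 was lost (adjusted p up to 0.203 by DESeq2), with log2 fold changes of -0.41 to -0.33. Over all 17 libraries the genotype difference of Ptgs2 was -0.94 on the log2 scale (SE 0.23, adjusted p 0.000679 by DESeq2), which averages the smaller differences of Sal and PTZ0 and the larger one of PTZ45.

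Ptgs2 was slightly higher in PTZ0 than in Sal in both genotypes, without a call, and in CBP-ifKOs these groups were on different lanes. The log2 fold change was 0.17 in controls (SE 0.10, adjusted p 1.0 by DESeq2), within 1 lane, and 0.23 in CBP-ifKOs (SE 0.13, adjusted p 1.0 by DESeq2). In the fit of both genotypes together, chosen after the values were seen, it was 0.19 (SE 0.06, 95% interval 0.07 to 0.31, adjusted p 1.0 by DESeq2). The 2 genotypes pointed the same way, and all 6 PTZ0 libraries lay above the Sal libraries of their own genotype. The share of all genes for which this held was not computed.

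Ptgs2os (chr1:150074873-150099963, minus strand), a noncoding gene whose 5′ end lies 68 bases upstream of the Ptgs2 start, and Ptgs2os2 (chr1:150159043-150164948, minus strand), whose 3′ end lies 50816 bases beyond the Ptgs2 end, were looked at after the Ptgs2 values were seen. Ptgs2os was at 11.1 to 17.2 normalized counts in Control Sal, 14.1 to 20.0 in Control PTZ0 and 21.7 and 25.6 in Control PTZ45. In CBP-ifKOs it was at 10.4 to 11.8 in Sal and 8.67 to 12.2 in PTZ0, with 8.41 to 15.3 in PTZ45. The Control PTZ45 libraries were the highest of all 17, as for Ptgs2, and the control and CBP-ifKO libraries did not overlap in PTZ0 or PTZ45. No pair of groups was called, and between genotypes DESeq2 gave Ptgs2os no adjusted p in Sal, PTZ0 or PTZ45, so that it could not be called there. With raw counts of 5 to 29, the log2 fold change of Control PTZ45 against Sal, 0.80, had an SE of 0.53. Over all libraries Ptgs2os was called lower in CBP-ifKOs (log2 fold change -0.68, SE 0.24, adjusted p 0.0292 by DESeq2), a call kept in 15 of 23 alternatives that gave an adjusted p (up to 0.106 by DESeq2 without Control PTZ45 replicate 1). Ptgs2os2 had at most 6 raw counts in a library and was called in no comparison.

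Over the 13041 genes whose mean reached 50 normalized counts, the pattern of Ptgs2 over the 17 libraries was most like that of Rgs2, a regulator of G protein signalling. Pearson's r of log2(normalized count + 1) was 0.994 for Rgs2, followed by 0.977 for Ifrd1, 0.969 for Fbxo33, 0.967 for Nr4a2 and 0.967 for Btg2. All share the 2 high Control PTZ45 libraries, and without them r over the remaining 15 libraries was 0.967 for Rgs2, 0.730 for Ifrd1, 0.715 for Btg2, 0.688 for Nr4a2 and 0.686 for Fbxo33. By Spearman's rho only 1 of the 5 most similar genes was shared, Rgs2, at 0.983. These values describe libraries that share group, lane and depth.

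None of the 3 prostaglandin E synthases was called after PTZ45 in either genotype. Ptges (ENSMUSG00000050737, chr2:30889471-30929863, minus strand), the inducible microsomal synthase that is regarded as the partner of COX-2, was the least abundant of the 7 genes. It was at 20.3 to 29.8 normalized counts in Control Sal, 25.5 to 30.5 in Control PTZ0 and 22.1 and 27.2 in Control PTZ45. In CBP-ifKOs it was at 16.6 to 32.7 in Sal and 19.1 to 38.6 in PTZ0, with 25.9 to 33.0 in PTZ45, and the groups overlapped in every pair compared. The log2 fold change of Control PTZ45 against Sal was -0.04 (SE 0.46, adjusted p 0.996 by DESeq2), with a 95% interval from -0.93 to 0.85. With raw counts of 8 to 51 over all 17 libraries, that interval still holds changes from 47.7% lower to 80.4% higher. The independent filtering of DESeq2 left Ptges without an adjusted p between genotypes in Sal and in PTZ0.

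Ptges2 (ENSMUSG00000026820, chr2:32395896-32405772, plus strand), a membrane-associated synthase, was slightly lower in CBP-ifKOs. The control libraries were at 275 to 323 normalized counts in Sal, 269 to 290.4 in PTZ0 and 280.3 and 287 in PTZ45. The CBP-ifKO libraries were at 237 to 282 in Sal and 214 to 268 in PTZ0, with 238 to 275 in PTZ45. The genotypes did not overlap in PTZ0 and PTZ45 and overlapped in Sal. Over all libraries controls had a mean of 288 ± 16.5 (SD, n = 8) and CBP-ifKOs one of 249 ± 22.7 (SD, n = 9), and the log2 difference was -0.21 (SE 0.06, adjusted p 0.0110 by DESeq2). This call, 1 among 19.3% of all genes, was kept in all 24 alternatives, with log2 fold changes from -0.23 to -0.18. The interneuron and astrocyte sums, given above, were also lower in CBP-ifKOs in some treatments, and their part in the Ptges2 difference was not tested. Within single treatments Ptges2 was not called, with log2 fold changes of -0.23 in Sal, -0.24 in PTZ0 and -0.14 in PTZ45. From Sal to PTZ45 the log2 fold change was -0.07 in controls and 0.01 in CBP-ifKOs (SE 0.15 for both).

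Ptges3 (ENSMUSG00000071072, chr10:128058954-128077272, plus strand) encodes the cytosolic synthase, a protein also known as a co-chaperone of heat shock proteins. Ptges3 was at 464 to 549 normalized counts in Control Sal, 481 to 528 in Control PTZ0 and 481 and 556 in Control PTZ45. In CBP-ifKOs it was at 452 to 501 in Sal and 453 to 499 in PTZ0, with 482 to 582 in PTZ45, and the groups overlapped in every pair compared. The log2 fold change of PTZ45 against Sal was 0.07 in controls (SE 0.13, 95% interval -0.19 to 0.33) and 0.13 in CBP-ifKOs (SE 0.12, 95% interval -0.11 to 0.36). In controls the interval limits a change to 12.6% lower and 25.4% higher. A pseudogene, Ptges3-ps, is annotated, and reads that fit both equally well would not have passed the mapping quality filter.

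Hpgd (ENSMUSG00000031613, chr8:56294585-56321043, plus strand), which encodes the dehydrogenase that starts the inactivation of prostaglandins, was at 63.3 to 73.9 normalized counts in Control Sal, 60.9 to 79.0 in Control PTZ0 and 57.5 and 71.7 in Control PTZ45. The CBP-ifKO libraries were at 29.1, 57.0 and 58.4 in Sal, at 41.4 to 72.5 in PTZ0 and at 54.0 to 76.8 in PTZ45. CBP-ifKO Sal lay below Control Sal without overlap, with a log2 fold change of -0.46 (SE 0.28 and 95% interval -1.01 to 0.10) that was not called (adjusted p 0.632 by DESeq2). The library at 29.1 had 14 raw counts of Hpgd. In the other treatments the genotypes overlapped, and PTZ45 differed from Sal by -0.11 in controls (SE 0.28) and by 0.38 in CBP-ifKOs (SE 0.30) on the log2 scale, neither called.

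**Figure D4:**
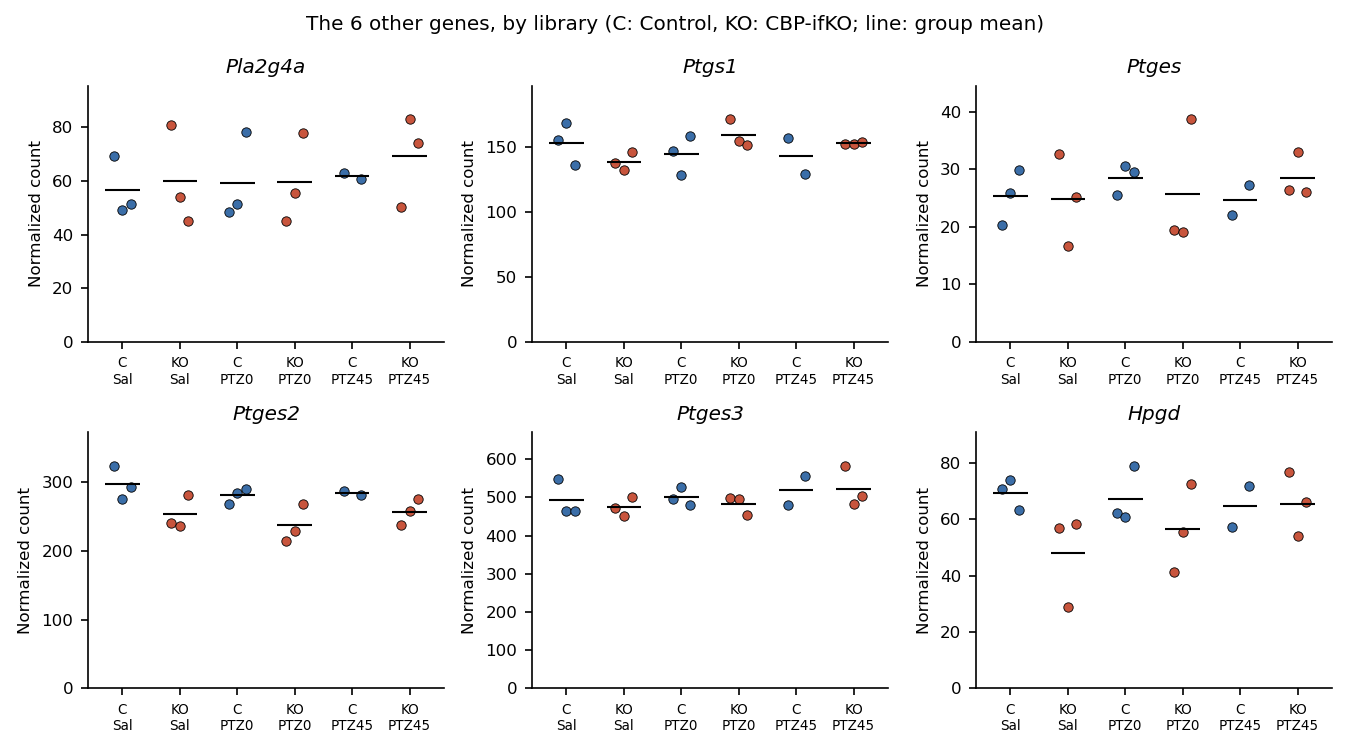
The 6 genes other than Ptgs2 in each library, in normalized counts, by group (C, Control; KO, CBP-ifKO), with group means as lines. The Control PTZ45 libraries do not stand apart for any of the 6, and CBP-ifKO lies below Control for Ptges2 in PTZ0 and PTZ45 and for Hpgd in Sal.

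In all, the 6 genes other than Ptgs2 were tested 54 times in pairs of groups, with 0 calls by DESeq2, 0 at an unadjusted p under 0.05 and log2 fold changes from -0.46 to 0.38. The groups did not overlap in 5 of the 54, all in tests of Ptgs1, Ptges2 or Hpgd. With so few libraries in a group, full separation can arise by chance. Its share over all genes was not computed, so these 5 are not taken as differences between the groups. In the 5 libraries with high choroid plexus markers Ptges tended to be high, at 25.9 to 38.6 normalized counts against 16.6 to 29.8 in the other 12, and the part of that tissue in its level was not tested. The ranges were 49.2 to 83.0 and 45.0 to 78.1 for Pla2g4a and 54.0 to 73.9 and 29.1 to 79.0 for Hpgd.

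The rest of the pathway was described with 38 further genes: enzymes that release arachidonate or act on its relatives, other prostanoid synthases, reductases and transporters, receptors, and the lipoxygenase branch. After the last PTZ injection 0 were called by DESeq2 in either direction. In controls 28 had an adjusted p against Sal and 28 against PTZ0, where 1.17% and 1.25% of all genes were called. In CBP-ifKOs 32 and 37 had one, beside 0.294% and 0.0872% of all genes called. In the interactions, with 33 over Sal and 31 over PTZ0, 0 were also called, beside 0.329% and 0.423% of all genes. At an unadjusted p under 0.05, 2 were found in Control PTZ45 against Sal, 2 in Control PTZ45 against PTZ0, 2 in CBP-ifKO PTZ45 against Sal, 0 in CBP-ifKO PTZ45 against PTZ0 and 1 in each interaction. Of these 6 comparisons edgeR called Ptgds in 4, both in controls and both interactions, and nothing else. With a filter on low counts it called Ptgds in 1, Control PTZ45 against PTZ0. Kindling followed by saline gave 0 calls by DESeq2 and 0 at an unadjusted p under 0.05 in each genotype and in both together, while edgeR without a filter called Ptgds in controls and in both together.

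Ptgds, the prostaglandin D synthase, was the most abundant of the 38 per kb, at a mean of 1706 and from 634 to 2975 per kb. Its normalized counts varied within groups, from 1046 to 4855 in the 3 CBP-ifKO PTZ0 libraries and from 2385 to 4778 in Control Sal. They moved with the summed meningeal fibroblast markers, which ran from 382 to 1345 over all libraries (Pearson's r of 0.786 over 17 libraries, as a description). Pla2g5, a secreted phospholipase, was at 9.85 to 51.9 normalized counts in the 5 libraries with high choroid plexus markers and at 1.18 to 8.14 in the other 12. The part of these tissues in the values of both genes was not tested.

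By role, the most abundant per kb were Abhd12 (894), which hydrolyses monoacylglycerols, among the releasing enzymes, Ptgr2 (43.9), a prostaglandin reductase, among reductases and transporters, Ptger4 (9.80), a prostaglandin E receptor, among receptors, and Lta4h (66.2), the leukotriene A hydrolase, in the lipoxygenase branch. The 9 receptors were thus at a mean of 9.80 per kb or less, with Ptger3, the next, at 7.11.

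Between genotypes, 4 of the 38 genes were called over all libraries, 1 higher and 3 lower in CBP-ifKOs, of 30 with an adjusted p, where 19.3% of all genes were called. In the same comparison edgeR called 8 of them without a filter on low counts and 4 with it. Faah, the hydrolase of the endocannabinoid anandamide, was at 1127 to 1295 normalized counts in the control libraries and at 944 to 1174 in CBP-ifKOs (log2 fold change -0.26, SE 0.05, adjusted p 9.75e-07 by DESeq2). Abhd6, a hydrolase of the endocannabinoid 2-arachidonoylglycerol, was at 459.9 to 499 and 361 to 461 (log2 fold change -0.26, SE 0.05, adjusted p 6.87e-06 by DESeq2). For both the ranges touched in 1 CBP-ifKO PTZ0 library only.

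Alox12b, an arachidonate lipoxygenase known mainly from skin, separated the genotypes without overlap. It was at 53.1 to 90.4 normalized counts in the 8 control libraries and at 22.2 to 47.7 in the 9 CBP-ifKO libraries, from 23 to 100 raw counts (log2 fold change -1.08, SE 0.17, adjusted p 6.75e-09 by DESeq2). Pla2g4b, a cytosolic phospholipase, was the gene called higher, at 9.52 to 18.6 and 12 to 35.3 (log2 fold change 0.65, SE 0.23, adjusted p 0.0297 by DESeq2). Its genotypes did not overlap in Sal and PTZ0 and overlapped in PTZ45, but it was called in no single treatment, and neither interaction was called. The call over all libraries was kept in 15 of 24 alternatives, and exons of Pla2g4b overlap Gm28042 on its own strand and Sptbn5 on the other, so that its counts are uncertain. The calls of Faah, Abhd6 and Alox12b were kept in all 24. The median log2 fold change of the 38 was -0.0037, against 0.01 over all genes tested.

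Within single treatments 2 of these genes were called between genotypes, both lower in CBP-ifKO Sal, of 21 with an adjusted p and beside 2.04% of all genes: Faah (log2 fold change -0.31, SE 0.09, adjusted p 0.0479 by DESeq2) and Alox12b (log2 fold change -1.10, SE 0.32, adjusted p 0.0365 by DESeq2). These calls were kept in 4 of 13 and 6 of 11 alternatives. In Sal edgeR called 4 of the 38 without a filter on low counts, Faah and Alox12b among them, and 0 with it. In PTZ0 and in PTZ45, 0 of the 17 and 21 with an adjusted p were called by DESeq2 (6.68% and 3.07% of all genes), with 6 and 2 at an unadjusted p under 0.05. There edgeR called 3 and 0 without the filter and 1 and 0 with it. Neither Faah nor Alox12b was called after PTZ in either genotype.

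**Figure D5:**
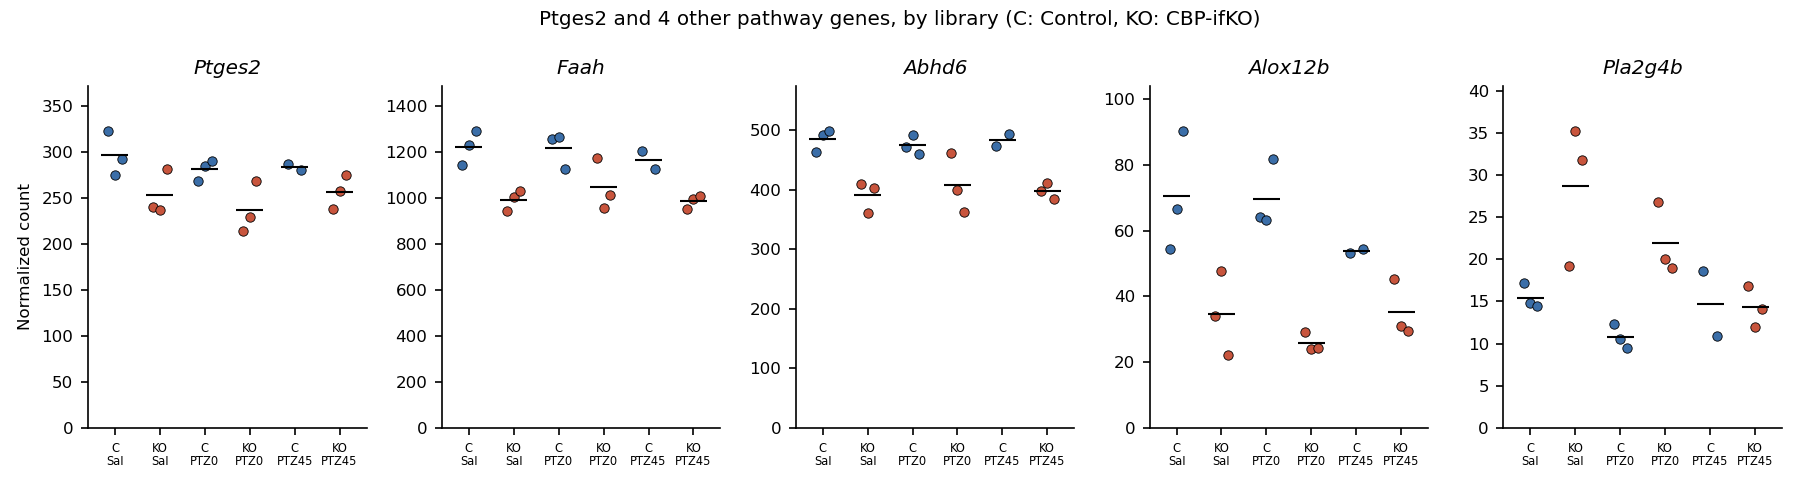
Ptges2 and the 4 other pathway genes called between genotypes over all libraries, in normalized counts by library and group (C, Control; KO, CBP-ifKO), with group means as lines. Alox12b lies at 53.1 to 90.4 in Control and 22.2 to 47.7 in CBP-ifKO, and the Pla2g4b libraries of the genotypes overlap in PTZ45 but not in Sal or PTZ0.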

How the data were processed

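The authors trimmed single-end 50-base reads (Trim Galore 0.6.4), aligned them to GRCm38 (STAR 2.6.1), kept those with a mapping quality over 10 and counted exons with Rsubread. They deposited raw counts per gene, with exonic lengths, for 55471 genes. Whether strand was used is not given in the sources used here. Of 18 count columns, 1 matched no sample and was not used. By its name it is like the 2 columns of Control PTZ45. Symbols and positions came from GENCODE M21, which held 99.6% of the identifiers.

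Members, gene lists, tests and motifs were chosen with earlier results of these data known. Groups came from the labels. The study's methods describe the saline samples as individual mice and do not say so of the others, so p-values measure only the spread between these libraries. Counts were compared by two-sided Wald tests in DESeq2 1.42.0 (R 4.3.3), as in the study's methods, on the libraries compared, with at least 1 count, at an adjusted p under 0.05. Alternatives were edgeR 4.0.16 (quasi-likelihood, without and, added later, with a filter), TMM size factors, a filter of 10 counts in 2 libraries, 1 fit of all 17 libraries, a replicate block, a GC correction (loess span 0.5) and leaving out each library. The scripts were tested on simulated data. Named were all 7 members, pathway genes called or the most abundant of their role, and the 5 genes most like Ptgs2. Any other gene was named after its values were seen.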

Additional observations from a re-analysis of the deposited data

Results flagged for a closer look

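The response of Ptgs2 to the last PTZ injection differed between the genotypes by a test of the difference itself. The interaction was -1.77 on the log2 scale over Sal (SE 0.17, adjusted p 6.59e-22 by DESeq2) and -1.83 over PTZ0 (SE 0.16, adjusted p 9.02e-27 by DESeq2). Both Control PTZ45 libraries and all 3 CBP-ifKO PTZ45 libraries lay above the Sal and PTZ0 libraries of their genotype, but the CBP-ifKO difference was not called over PTZ0, and its call over Sal was lost in 5 of 13 alternatives. With 2 or 3 libraries in a group, no test for outlying libraries was made.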

How the results depend on the processing

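Over 1351 alternative fits of the 7 genes, 0 reversed a call and 17 lost one. In 107 an uncalled difference changed sign, with 0.42 as the largest size of the new log2 fold change. For Ptgs2, CBP-ifKO PTZ45 against CBP-ifKO Sal, the log2 fold change was 0.52 with the GC correction (adjusted p 0.0777 by DESeq2) and 0.58 by edgeR with a filter (adjusted p 0.125), leaving 0 members called, and 0.56 to 0.61 without 1 library (0 to 1 called). Between genotypes without 1 library it was -0.46 to -0.41 in Sal and -0.41 to -0.33 in PTZ0 (0 to 1 called). Of 40 same-numbered pairs of libraries, 15 had a correlation of deviations over 0.1 (range -0.52 to 0.53). Differently numbered pairs were not compared, so whether the replicate numbers pair the libraries was not settled. With the replicate block the Ptgs2 values were -0.44 in Sal (adjusted p 0.371 by DESeq2) and -0.37 in PTZ0 (adjusted p 0.121 by DESeq2), with 0 members called.

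Counts of all genes called moved with edgeR without a filter, where the prior degrees of freedom were infinite in every comparison, from 204 to 607 (Control PTZ45 against Sal), 58 to 218 (CBP-ifKO PTZ45 against Sal), 225 to 773 (Control PTZ45 against PTZ0), 23 to 101 (CBP-ifKO PTZ45 against PTZ0), 3 to 85 and 4 to 21 (PTZ0 against Sal in controls and CBP-ifKOs), 306 to 828, 852 to 1428 and 468 to 972 (genotype in Sal, PTZ0 and PTZ45), 69 to 121 and 82 to 185 (interactions) and 0 to 62 (PTZ0 against Sal in both). In the same order, edgeR with the filter called 220, 4, 306, 9, 1, 1, 149, 778, 455, 43, 63 and 0, and the replicate block left 73, 84, 94, 8, 3, 2, 122, 410, 102, 53, 69 and 0. In the fit of all 17 libraries 91 were called in CBP-ifKO PTZ45 against Sal, 0 in PTZ0 against Sal in each genotype, and 614 and 785 for genotype in Sal and PTZ45, and the GC correction left 16 in CBP-ifKO PTZ45 against Sal. Leaving out 1 library gave, in the order above, 109 to 164, 16 to 92, 133 to 499, 16 to 23, 0 to 20, 2 to 5, 127 to 620, 327 to 913, 153 to 365, 38 to 66, 50 to 79 and 0 to 4. With 2 or 3 libraries a group, and 8 to 126 counts a library for Ptges, Hpgd and Pla2g4a, the tests did not exclude changes within their intervals. TMM scaling moved 1 of 42 group means of members by over 1 SD.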
